A study of Mus musculus with 2 samples.

Results

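The genes described are the cytosolic and mitochondrial molecular chaperones of the mouse, chosen by gene symbol. They comprise the Hsp70 genes and their Hsp110 relatives, the cytosolic Hsp90 genes, the small heat shock proteins, the mitochondrial chaperonin, the J proteins and the subunits of the cytosolic chaperonin CCT/TRiC. Of 23924 gene symbols in the deposited table, 81 matched the symbol patterns. Hspa5, Dnajb9, Dnajb11 and Dnajc3, which act in the endoplasmic reticulum, were left out, so that 77 genes remained. The choice was by name alone, and a few of the 77, such as Hspa13 and Dnajc10, also encode endoplasmic reticulum proteins.

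The study recovered RNA from nuclear extracts of RAW 264.7 cells, a mouse macrophage line, by immunoprecipitation, to find transcripts bound by nucleolin. Both libraries came from cells with mRrp6 depleted (the product of Exosc10, a ribonuclease of the nuclear exosome) and stimulated for 12 h with LPS, a bacterial cell wall component, at 80 ng/ml. One library was precipitated with rabbit IgG as the control. The second has nucleoplasmic RNA as its title. It was treated as the nucleolin library, since the design text ties such RNA to the nucleolin antibody and its column is headed NCL. Values with IgG and with nucleolin below are those of these libraries. How mRrp6 was depleted is not given in the sources used here, and there was no library of undepleted or unstimulated cells among those analysed. With 1 library per antibody, nothing measures the spread between replicates, and no test between the libraries was made. Exosc10 was at 0 FPKM with IgG and 6.42 FPKM with nucleolin, which checks no depletion since both libraries came from depleted cells.

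Chaperones bind unfolded or partly folded proteins and keep them from aggregating. Hsp70 proteins go through cycles of ATP binding and hydrolysis, J proteins deliver substrates and trigger the hydrolysis, and Hsp110 proteins help to exchange the nucleotide. Hsp90 acts later on kinases and receptors, CCT/TRiC encloses actin and tubulin while they fold, and Hsp60 with Hsp10 forms the folding chamber of mitochondria. Some of these genes are transcribed at all times in most cells, while others are switched on by heat shock factor 1 under stress. Nucleolin is an abundant RNA-binding protein of the nucleolus that also binds messenger RNAs.

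Most chaperone transcripts were at 0 in both libraries, and the highest were those of the constitutive Hspa8 and Hsp90ab1. At 0.1 FPKM or more, here called listed, 18 of the 77 genes (23.4%) appeared in at least 1 library, against 13.4% of all genes in the table. FPKM counts fragments per kilobase of transcript and per unit of sequencing depth. The IgG library listed 11 of the 77 (14.3%, against 8.4% of all genes) and the nucleolin library 10 (13.0%, against 7.23% of all genes). Both libraries listed Hspa8, Hsp90ab1 and Hspa9, which is 3 of 77 (3.90%), against 2.25% of all genes. Of the 18 listed, another 8 had a value with IgG alone and 7 with nucleolin alone. Over all genes listed in at least 1 library, these shares were 46.0% and 37.2%. The remaining 59 chaperone genes were at 0 in both.

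**Figure D1:**
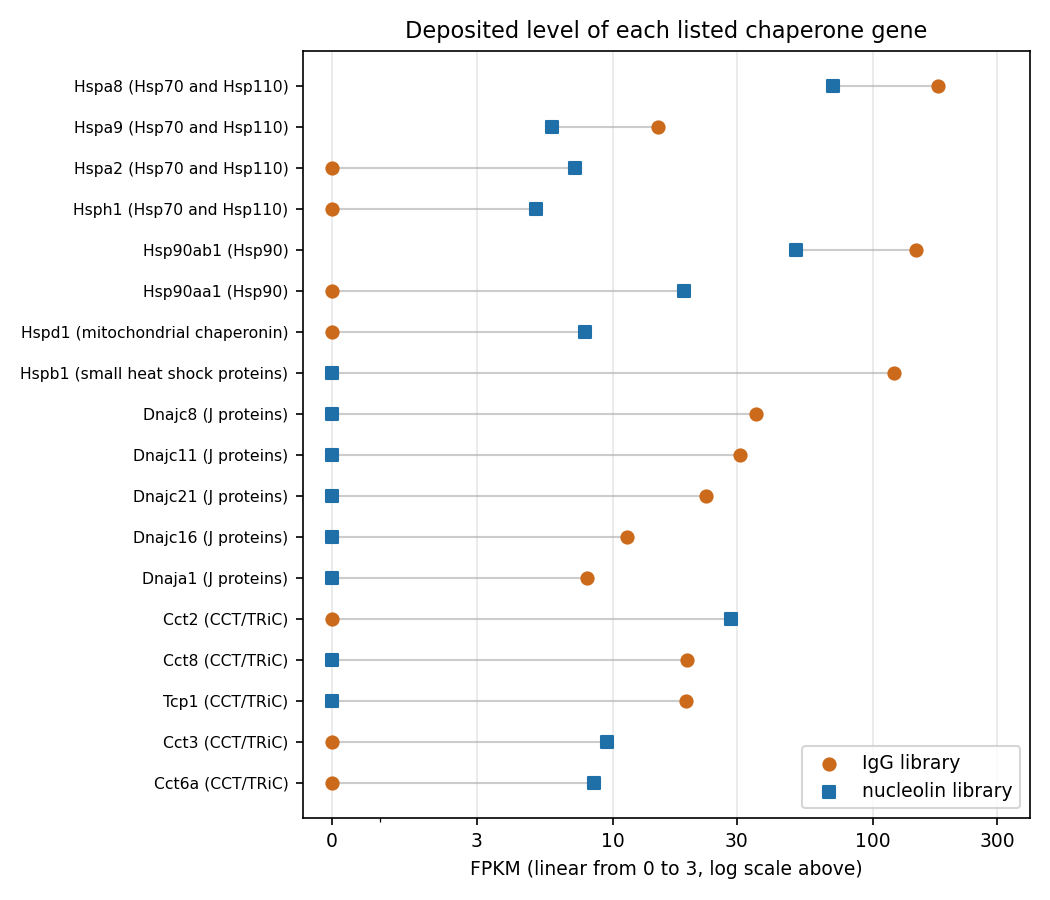
FPKM of the 18 listed chaperone genes in the IgG library (circles) and the nucleolin library (squares), 1 library each, with the family in brackets; the axis is linear from 0 to 3 FPKM and logarithmic above. Hspa8, Hsp90ab1 and Hspa9 have a value above 0 in both libraries and are higher in the IgG library, and the other 15 genes are at 0 in one library.

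The FPKM values could be traced back to whole reads. FPKM equals the read number divided by the library's total and by an effective length, the transcript length less a constant. Of short genes with 1 RefSeq transcript, 20 of 186 with IgG and 9 of 153 with nucleolin fell on 1 line within 0.2%, the line of 1 read where the gene span is the transcript length. It gave totals of 23669 fragments for the IgG library and 60896 for the nucleolin library. The constant was 202.6 bases with IgG and 234.1 bases with nucleolin. With these, 1315 of 1405 genes with 1 table row listed in the IgG library (93.6%) and 1091 of 1167 in the nucleolin library (93.5%) gave a single solution of whole reads and a whole-number transcript length, within 0.003 bases. Most of these genes rested on 1 read, 76.4% of them with IgG and 72.2% with nucleolin. Outside the abundant Rn45s, Lars2, Mir6236 and Mir142b, these genes held 2050 reads with IgG and 1880 with nucleolin. The FPKM of 1 read was 2.54 times larger with IgG than with nucleolin, and a gene with equal reads in both appears lower in the nucleolin library by that factor.

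**Figure D2:**
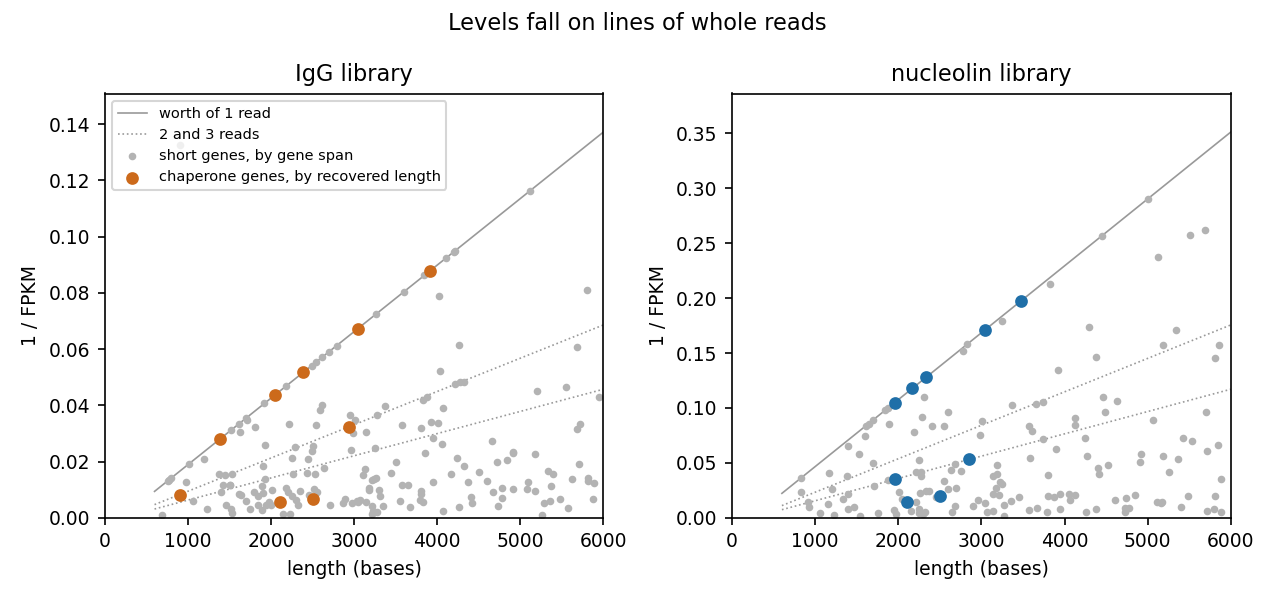
Reciprocal of FPKM against length in bases in the IgG library (left) and the nucleolin library (right). Grey points are genes with 1 transcript and a short span, placed by their gene span; the solid line is the worth of 1 read and the dotted lines those of 2 and 3 reads. Coloured points are chaperone genes at the length at which their value is a whole number of reads, so they lie on such lines by construction, and 5 of 9 in the IgG and 5 of 9 in the nucleolin library lie on the line of 1 read.

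All 15 listed chaperone genes with a single table row had 1 solution. They held 25 reads with IgG and 26 with nucleolin. Tcp1, Dnaja1 and Hspa2 had several transcript rows with fractional shares, and their reads were not recovered. The interval given below with a ratio is the exact (Clopper-Pearson) 95% interval from the read numbers. A value of 0 reads allows up to 3 reads, and this limit is given in FPKM at the recovered length. Intervals and limits cover counting error only, since reads without molecular identifiers are not independent molecules.

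Among the Hsp70 and Hsp110 genes, 4 of 13 were listed (30.8%, against 13.4% of all genes). Hspa8 encodes the constitutive cytosolic Hsp70 that also uncoats clathrin vesicles, and lies on mm10 chromosome 9 from 40801276 to 40805202. It was at 178 FPKM with IgG and 70.3 FPKM with nucleolin. These values were 8 reads in each library at a length of 2104 bases. The FPKM ratio of nucleolin to IgG was 0.395, the ratio of equal reads at that length, with an interval from 0.129 to 1.21. Hspa8 was the highest chaperone gene in both, at rank 77 of 2009 listed genes with IgG and rank 76 of 1729 with nucleolin. Among genes with recovered reads, 22 of 1315 with IgG and 21 of 1091 with nucleolin had 8 reads or more.

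Hspa9 encodes mortalin, the Hsp70 of the mitochondrial matrix that pulls in imported proteins. It was at 14.9 FPKM with IgG and 5.85 FPKM with nucleolin, which was 1 read in each. Its ratio of 0.393 had an interval from 0.00501 to 30.9. Hsph1, the Hsp110 exchange factor, was at 5.06 FPKM (1 read) with nucleolin and 0 with IgG, where 0 reads allow up to 38.7 FPKM. Hspa2, an Hsp70 best known for its role in male germ cells, was at 7.17 FPKM with nucleolin and 0 with IgG. Its level was split over 2 transcript rows, of 6.98 and 0.196 FPKM. The germ cell markers Prm1, Prm2, Tnp1 and Tnp2 were at 0 in both libraries. The stress-inducible Hsp70 genes Hspa1a and Hspa1b, which are near-identical copies, were also at 0 in both, as were Hspa4, Hspa4l and Hspa14.

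Both cytosolic Hsp90 genes were listed, where 13.4% of all genes were. Hsp90ab1, the constitutive form, lies on chromosome 17 from 45567778 to 45573261. It was at 147 FPKM with IgG and 50.6 FPKM with nucleolin, or 8 and 7 reads at 2507 bases. Its ratio was 0.345, with an interval from 0.106 to 1.09 that includes both equal FPKM and the ratio of equal reads (0.394). Hspa8 and Hsp90ab1 together made up 53.5% of the summed FPKM of the 77 genes with IgG and 57.0% with nucleolin. Hsp90aa1, the stress-inducible form, lies on chromosome 12 from 110691036 to 110696395. Its level was 18.8 FPKM with nucleolin and 0 with IgG. That value was 3 reads at 2850 bases. The limit of 0 reads in the IgG library was 47.9 FPKM, above the nucleolin value, and the interval of the ratio began at 0.163 with no upper end. The contrast between the paired Hsp90 genes therefore rested on 3 reads against 0 for Hsp90aa1 and on 8 against 7 for Hsp90ab1.

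**Figure D3:**
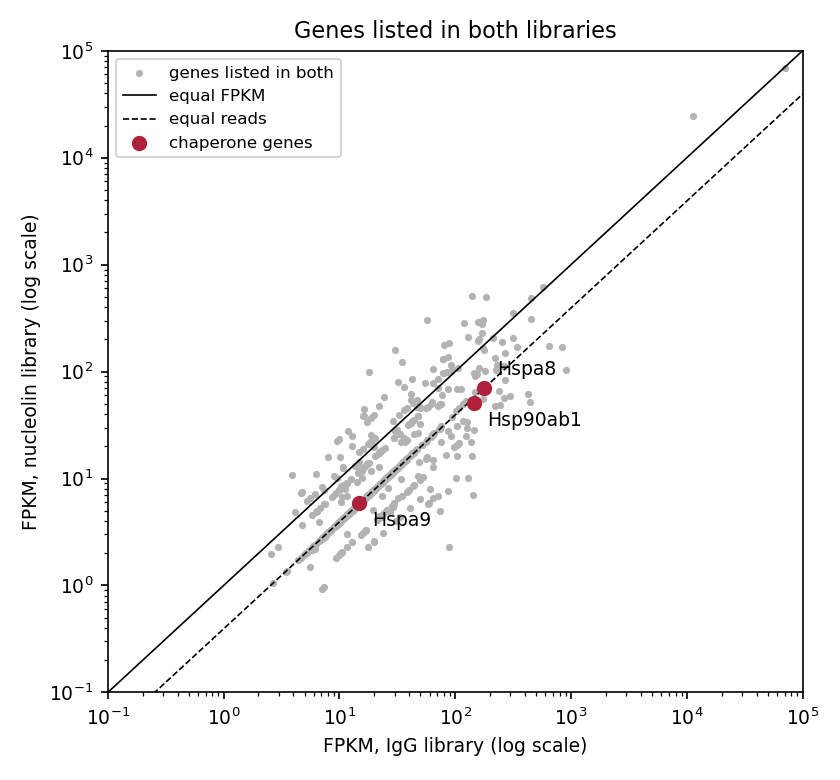
FPKM in the nucleolin library against FPKM in the IgG library for the genes listed in both, on log scales, with lines of equal FPKM (solid) and equal reads (dashed, a ratio of 0.393). Hspa8 and Hspa9 lie on the dashed line and Hsp90ab1 just below it.

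The cytosolic chaperonin CCT/TRiC is a double ring of different subunits, so that a cell needs all of them. Of its 10 genes in the table, 5 were listed, against 13.4% of all genes, and none in both libraries, where 2.25% of all genes were. In the nucleolin library only, Cct2 (the beta subunit, on chromosome 10 from 117050997 to 117063852) was at 28.5 FPKM, or 3 reads at 1962 bases. Cct3 (gamma) was at 9.53 FPKM and Cct6a (zeta) at 8.48 FPKM, 1 read each, also in the nucleolin library only. In the IgG library only, Cct8 (theta) was at 19.3 FPKM, or 1 read, and Tcp1 (alpha) at 19.1 FPKM. Cct4, Cct5 and Cct7, the remaining subunits of the ring, were at 0 in both, as were Cct6b and Cct8l1. The limit of 0 reads for Cct2 in the IgG library was 72.0 FPKM, above the 28.5 FPKM of the nucleolin library. For Cct8 the limit in the nucleolin library was 22.8 FPKM, above its IgG value of 19.3 FPKM. With 3 or 1 reads in the nucleolin library, or 1 read in the IgG library, no gene could exceed these limits. The limits therefore say nothing about the split of the subunits. In the mitochondrial chaperonin, Hspd1 (Hsp60) was at 7.83 FPKM (1 read) with nucleolin and 0 with IgG, and its partner Hspe1 (Hsp10) was at 0 in both.

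**Figure D4:**
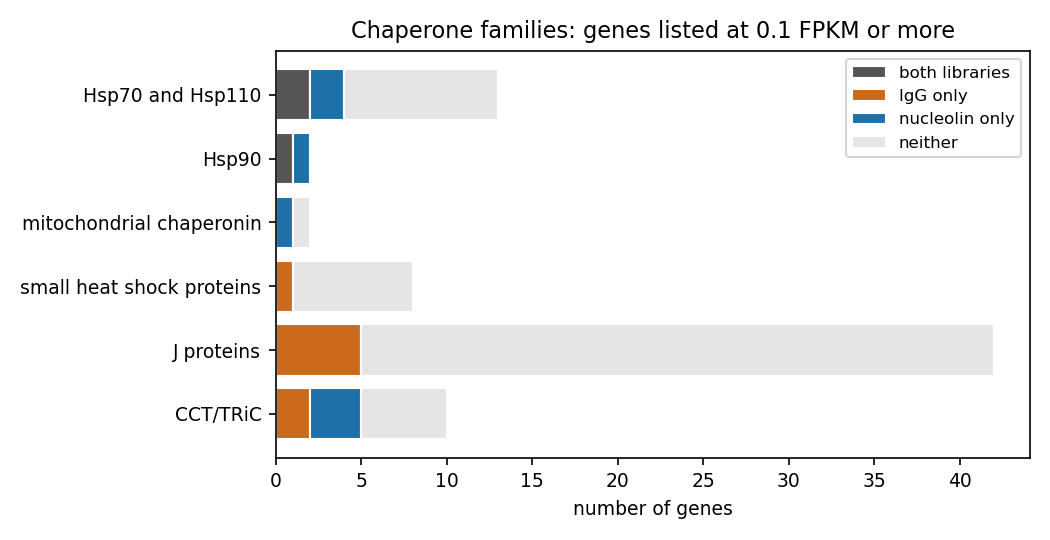
Number of genes in each chaperone family that were listed at 0.1 FPKM or more in both libraries, with IgG only, with nucleolin only or in neither. The 5 listed J proteins are in the IgG library only, CCT/TRiC is divided 2 to 3, and most genes of the large families are in neither.

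The J proteins, the largest family with 42 genes, had 5 listed members (11.9%, against 13.4% of all genes). All 5 were in the IgG library only. Over all genes listed in at least 1 library, 46.0% were in the IgG library only and 37.2% in the nucleolin library only. Dnajc8, a J protein found with splicing factors, was at 35.5 FPKM, or 1 read at 1392 bases. Dnajc11, a mitochondrial J protein tied to cristae structure, was at 30.8 FPKM, or 2 reads at 2944 bases. Dnajc21, which acts in the maturation of the large ribosomal subunit, was at 22.8 FPKM and Dnajc16, a membrane-anchored J protein, at 11.4 FPKM, 1 read each. Dnaja1, a main cytosolic partner of Hspa8, summed to 8.0 FPKM over 3 transcript rows. The highest of its rows held 7.78 FPKM. None of the 11 Dnajb genes, the stress-inducible Dnajb1 among them, was above 0 in either library, where 13.4% of all genes were listed. The 4 J proteins with recovered reads held 5 reads in all, and the limits of 0 reads in the nucleolin library ran from 13.4 FPKM for Dnajc16 to 42.5 FPKM for Dnajc8. Dnajc11 exceeded its limit of 18.2 FPKM, while its ratio had an interval from 0 to 2.09.

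Of the 8 small heat shock protein genes only 1 was listed (12.5%, against 13.4% of all genes). This was Hspb1 (Hsp25, a holding chaperone that also acts on actin). It was at 121 FPKM with IgG and 0 with nucleolin. Hspb1 lies on chromosome 5 from 135887919 to 135889563, and its value was 2 reads at 903 bases. The interval of its ratio ran from 0 to 2.17, and 0 reads in the nucleolin library allow up to 73.7 FPKM. Its high FPKM came with a short transcript, since 1 read was worth 60.3 FPKM at its length against 22.2 FPKM for Hspa8. Epithelial and smooth muscle cells also make Hspb1, and the listed markers of such cells were in the IgG library only. Of 6 epithelial markers 4 were listed, against 13.4% of all genes, with a summed level of 339 FPKM with IgG and 0 with nucleolin. The 3 with recovered reads held 1 to 3 of them, and only for Krt18, at 3 against 0, did the interval of the ratio (0 to 0.966) leave out 1. Krt5 and Epcam were at 0 in both. All 7 gastric and digestive markers summed to 19817 FPKM with IgG and 0 with nucleolin, and 3 of 4 fibroblast and smooth muscle markers to 70.2 FPKM and 0, with 2 reads each and intervals that include 1. Of 9 macrophage markers 7 were listed, against 13.4% of all genes, summing to 505 FPKM with IgG and 472 FPKM with nucleolin. Lyz2, Csf1r and Itgam were at 0 in the IgG library and Ptprc and Fcgr3 at 0 in both. The marker lists were chosen with earlier results of these data known, so these counts and sums cannot serve as a test. Both libraries were described as coming from a macrophage line, and not from epithelial, digestive or smooth muscle cells. How RNA of the epithelial, digestive, fibroblast and smooth muscle markers came to be in the IgG library was not tested. The part of such RNA in the values of Hspb1 and the J proteins was also not tested.

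Several of these genes are textbook targets of heat shock factor 1, which binds inverted repeats of the letters GAA. The 250 bases before the gene start are shown for Hspb1 and Dnaja1. Among the 13 listed members with a promoter sequence at hand, only these had such a repeat outside the gene itself. Hspa8, Hsp90ab1, Hsp90aa1, Hspa9 and Dnajc11 had no promoter sequence at hand and were not searched. Hspb1 and Dnaja1 were both listed with IgG only. The sequences are from RefSeq on GRCm38.p6 (the assembly behind mm10), read 5′ to 3′ on the strand of the gene, and capitals mark GAANNTTC or TTCNNGAA. Each motif reads the same on both strands, and the pair can overlap.
Hspb1, chr5:135887669-135887918, plus strand: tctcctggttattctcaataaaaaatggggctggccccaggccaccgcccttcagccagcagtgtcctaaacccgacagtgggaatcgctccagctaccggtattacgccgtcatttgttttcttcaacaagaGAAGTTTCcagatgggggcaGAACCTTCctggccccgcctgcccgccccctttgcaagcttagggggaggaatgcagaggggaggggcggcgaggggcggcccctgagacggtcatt
Dnaja1, chr4:40722218-40722467, plus strand: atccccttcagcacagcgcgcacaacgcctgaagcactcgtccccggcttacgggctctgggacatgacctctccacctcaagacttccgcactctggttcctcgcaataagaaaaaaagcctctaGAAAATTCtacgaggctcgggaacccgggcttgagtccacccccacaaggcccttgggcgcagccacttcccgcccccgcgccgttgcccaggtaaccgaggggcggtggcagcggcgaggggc

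The Hspb1 window holds 2 matches and the Dnaja1 window 1. The Dnaja1 window lies within the span of Gm6297, annotated as a long noncoding RNA. The promoter table held 62 of the 77 genes, in 81 windows, and 23.5% of these windows held a match against 12.8% of all 32851 windows in the table. By gene, 17 of the 62 (27.4%) had a match in at least 1 window, against 14.55% of all genes in the promoter table. Of the 13 listed members there, 5 (38.5%) had one, namely Hspb1, Hsph1, Dnaja1, Hspd1 and Cct2, and of the 49 at 0 in both libraries 12 had one. The matches of Hsph1, Hspd1 and Cct2 precede annotated starts that lie inside the gene span. A match is a run of letters and not a measured binding site, and the libraries, which measure recovered RNA, do not bear on promoter activity.

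By fold, 7 of the 18 listed chaperone genes were higher with nucleolin by 2-fold or more, where 37.8% of all genes compared were, and 11 were lower by 2-fold or more, where 56.7% were. The fold was computed as log2((nucleolin FPKM + 1) / (IgG FPKM + 1)), which understates the change of low genes. Both shares stand near those of all genes. Among the 11 were Hspa8, Hspa9 and Hsp90ab1, whose reads were equal or nearly equal in the libraries. The median log2 ratio of the 18 was -1.42 against -1.27 over all genes compared. Over the 3 genes in both libraries the median was -1.33 against -1.19 over all genes in both, where 63.6% of genes were at least 2-fold lower. The summed FPKM of the 77 genes was 607 with IgG and 212 with nucleolin, which is 0.622% and 0.590% of the sum of all genes other than Rn45s, Lars2, Mir6236 and Mir142b. The chaperone genes thus took a similar part of the remaining summed FPKM, on 25 recovered reads with IgG and 26 with nucleolin. The remainders are unlike, since that of IgG includes 19817 FPKM of gastric and digestive markers that were at 0 with nucleolin.

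For none of the 15 chaperone genes with recovered reads did the interval of the FPKM ratio leave out 1. Over all 2071 genes with recovered reads, it lay below 1 for 3.33% and above 1 for 0.0483%. It also included the ratio of equal reads for all 15 chaperone genes. The intervals of Hsp90ab1 and Hspa8 ended nearest to 1, at 1.09 and 1.21, although their reads were 8 against 7 and 8 against 8. Their FPKM ratios lay below 1 since 1 read was worth more FPKM with IgG. For 8 of the 15 the whole difference was 1 read against 0. A difference between the libraries was not detectable at this depth for any of them.

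**Figure D5:**
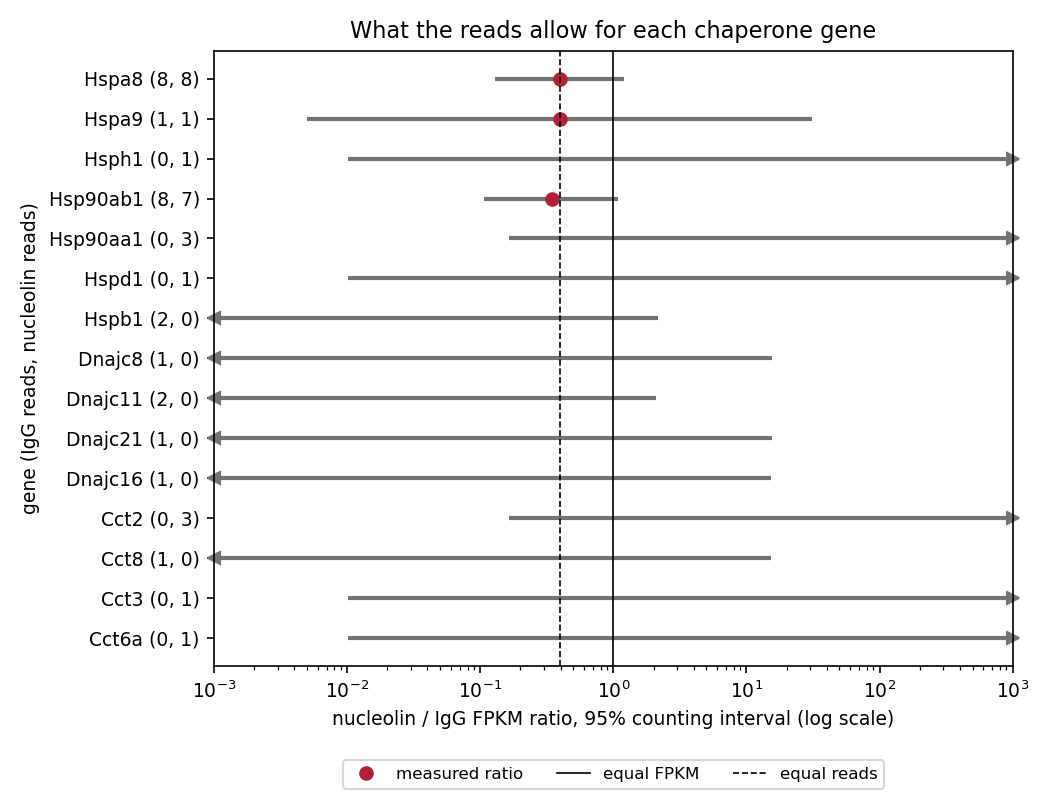
Exact 95% counting interval of the nucleolin to IgG FPKM ratio for the 15 chaperone genes with recovered reads, on a log scale, with the reads in the IgG and nucleolin libraries in brackets; arrows mark intervals that reach 0 or have no upper end, and points the ratio of genes in both. Every interval crosses the line of equal FPKM (solid) and that of equal reads (dashed).

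Of 55 genes for partner proteins of these chaperones with table rows, 17 were listed (30.9%, against 13.4% of all genes). Of these, 10 were listed with IgG alone, 6 with nucleolin alone and 1 in both, where 46.0%, 37.2% and 16.8% of all listed genes were. Their summed FPKM was 355 with IgG and 74.1 with nucleolin, and their median log2 ratio was -4.24 against -1.27 over all genes compared. That median was the value of Spg7, at 1 read against 0. The 15 with recovered reads held 11 reads with IgG and 7 with nucleolin, and the interval of the FPKM ratio included 1 for each. Hsf1, the heat shock factor itself, was at 23.3 FPKM (1 read) with IgG and 0 with nucleolin. Among cochaperones of Hsp70 and Hsp90, Stip1 (Hop, which links both) was at 16.9 FPKM (2 reads), Bag1 at 14.7, Hspbp1 at 13.1 and Sgta at 9.59 FPKM (1 read each) in the nucleolin library only, as was Ahsa2 at 4.75 FPKM. In the IgG library only were Ahsa1 (an activator of the Hsp90 ATPase) at 37.8, St13 (Hip) at 29.8, Ppid at 27.7 and Fkbp5 at 11.5 FPKM, 1 read each, and Fkbp8 at 28.2 FPKM. Ppp5c, a phosphatase that binds Hsp90, was at 22.6 and 8.95 FPKM, 1 read in each library. Of the prefoldin genes, which hand substrates to CCT/TRiC, only Pfdn5 was listed, at 88.9 FPKM in the IgG library. That value was 1 read on a transcript of 678 bases. The mitochondrial partners were Trap1 (the mitochondrial Hsp90, 40.3 FPKM, 2 reads), Timm44 (26.7 FPKM) and Spg7 (17.9 FPKM) in the IgG library only and Lonp1 (a matrix protease, 6.01 FPKM) in the nucleolin library only. The alpha crystallins Cryaa and Cryab were at 0 in both.

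Of 6 endoplasmic reticulum counterparts, the 3 with recovered reads held 4 reads with IgG and 13 with nucleolin. All genes with recovered reads other than Rn45s, Lars2, Mir6236 and Mir142b held 2050 and 1880. Hspa5 (BiP, the Hsp70 there) was at 54.4 FPKM with IgG and 78.5 FPKM with nucleolin over 2 transcript rows, and its reads were not recovered. Dnajb9 and Dnajb11 were at 0 in both. Hsp90b1, the Hsp90 of that compartment, had 3 IgG and 5 nucleolin reads, though it was lower by FPKM with nucleolin (49.6 and 32.5 FPKM). Hyou1, the Hsp110 there, had 1 and 6 reads (9.99 and 23.5 FPKM). Dnajc3, one of the 4 genes left out, had 0 and 2 reads (0 and 6.63 FPKM). The cytosolic counterparts stood at 8 and 7 reads for Hsp90ab1 and 0 and 3 for Hsp90aa1. Hspa8 had 8 and 8 reads, and Hsph1 had 0 and 1. The interval of the FPKM ratio ran from 0.128 to 4.22 for Hsp90b1 and overlapped that of Hsp90ab1, and it ran from 0.285 to 108 for Hyou1. For Dnajc3 it began at 0.0735 with no upper end, so that it included 1 for each of the 3. The difference between the compartments was not tested.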

How the data were processed

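The deposited table gives FPKM per transcript for 2 libraries, 33529 rows, per the file headers. FastQC 0.10.0, Trimmomatic 0.32 and mm10 are named in the submitters' processing notes; no aligner, quantification tool or strand setting is stated in the sources used here. Reads shared by near-identical genes (Hspa1a and Hspa1b) or overlapping genes are therefore uncertain. Rows were summed per symbol, leaving out 56 rows without one. Genes at 1 FPKM or more in at least 1 library were compared on log2((nucleolin + 1) / (IgG + 1)). Every member at that level is named. The members and lists were chosen with earlier results of these data known.

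Read recovery was devised after the values were seen. The worth of 1 read was fitted to short genes with 1 RefSeq transcript (20 of 186 on the IgG line, 9 of 153 on the nucleolin line, within 0.2%). It was refined on genes in both libraries, whose implied lengths are whole numbers. Read numbers up to 30, lengths of 500 bases or more and lengths within the gene span (GRCm38.p6) were tried, and only single solutions kept. In libraries simulated with the same formula, whole-number lengths and 1 row per gene, 1160 of 1160 genes were recovered. This checks the computation and cannot check whether the formula holds for the deposited values. The computation used pandas 2.3.3 and scipy 1.17.1 under Python 3.11.15, with numpy 2.4.6 and matplotlib 3.10.9. Alternatives covered the pseudocount, the minimum level, scaling, the listing threshold and the summing of rows.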

Additional observations from a re-analysis of the deposited data

How the results depend on the processing

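The median log2 ratio of the chaperone genes, -1.42 as reported, was -0.095 with 1 read set equal, -0.16 when centred on all genes and -0.0036 with equal sums outside 4 abundant RNAs. The summed level, at -1.52, moved to -0.17, -0.25 and -0.076 in that order. Hspa8 turned to 0.0068 with 1 read set equal and to 0.10 with equal sums, and Hspa9 to 0.054 when centred and to 0.088 with equal sums. The median was -1.44 with a pseudocount of 0.1, -0.97 with 10 and -3.98 at a minimum of 10 FPKM, where 12 members remained. The 7 higher genes became 2 with a pseudocount of 10 and 2 at a minimum of 10 FPKM. At 10 FPKM, 4 rather than 10 members were listed in the nucleolin library, since 1 read is mostly worth less than that there. By counting intervals, an alternative added after seeing the data, 0 were higher and 0 lower. No paired analysis was possible because there is 1 library per group. Depth limits every value: most genes rest on 1 read.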
